A study of Mus musculus with 14 samples.

Results

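Chromosome 6 of the mouse was followed through every single-cell genome of the series. Its members are all 269 of the 4880 genome bins whose deposited chromosome column reads chr6, and they run from chr6:1-149736546 in mm10 with a median bin width of 541 kb. In each cell the deposited coverage of a bin was divided by the cell's own median over chromosomes 1 to 19, and the median of that ratio over the 269 bins is called the chromosome 6 level. Chromosome 6 was chosen by its raised level in B16F10 culture and in cells of tumor-injected mice, so its level by cell class is a description and carries no test. A cell was counted as carrying the gain when its level was above the midpoint of 1.0 and 1.5.

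The series holds 648 cells from 14 samples, each sorted singly and amplified by MALBAC, a method that copies the whole genome of 1 cell before sequencing. B16F10 is a melanoma line of C57BL/6J mice, grown as an adherent culture, and 22 cells of it served as the tumor control. Of these, 9 samples came from female C57BL/6J mice of 6 to 8 weeks injected with fluorescently labelled B16F10 cells and given no drug. They held 43 circulating tumor cells (CTC, in 5 samples), 450 cells of a class labelled DP (in all 9) and 46 white blood cells (WBC, in 6), sorted from blood or lung. The tumor-injected samples are named C1L, C1N, C1R, C2N, C2R, C3R, P1, P2 and P4. The labels do not say what the letters mean, whether 1 sample is 1 mouse, or what DP stands for. Female C57BL/6J mice of the same age, labelled naive, gave 21 WBC and the classes CDP (18 cells), Duplike (24) and PltLike (24), each 1 sample. These last classes are labelled as cells of naive mice, but their chromosome 6 level was that of tumor material or lay between tumor and host (values further on), so this measure goes against the label of a naive host cell. The p-values below measure only the spread between these samples.

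A cell that missegregates a chromosome at mitosis can pass on an extra copy of all its genes at once, and such whole-chromosome gains are common in cultured tumor lines. Gains of part of a chromosome need a break instead, and a break leaves a step in coverage along the chromosome. Mouse chromosome 6 carries several genes known in melanoma, among them Mitf, the master transcription factor of melanocytes, the kinase gene Braf and the receptor gene Met. Mouse autosomes have their centromere near the start of the sequence, so low positions are proximal.

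The gain was nearly whole, with 1 dip at chr6:42759261-45559525 (2.80 Mb, 5 bins), described further on. Promoters of 3 genes that start in it, from RefSeq's promoter table for GRCm38.p6 (the build of mm10), are printed because they mark the single stretch that did not share the gain. The second Cntnap2 start lies 1.68 Mb past the dip, in the gained part of the chromosome. Each runs 5′ to 3′ along the gene's strand over 300 bases around the start, and capitals mark CG dinucleotides, the sites of DNA methylation in mammals.
Arhgef5, in the dip, chr6:43265394-43265693, plus strand: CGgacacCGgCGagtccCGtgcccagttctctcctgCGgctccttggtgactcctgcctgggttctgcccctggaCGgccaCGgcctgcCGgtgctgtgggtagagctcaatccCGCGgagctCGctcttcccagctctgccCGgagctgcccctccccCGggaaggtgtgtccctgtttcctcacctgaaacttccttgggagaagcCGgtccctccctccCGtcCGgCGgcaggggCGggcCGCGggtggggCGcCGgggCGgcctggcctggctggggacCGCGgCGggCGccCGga
Nobox, in the dip, chr6:43309505-43309804, minus strand: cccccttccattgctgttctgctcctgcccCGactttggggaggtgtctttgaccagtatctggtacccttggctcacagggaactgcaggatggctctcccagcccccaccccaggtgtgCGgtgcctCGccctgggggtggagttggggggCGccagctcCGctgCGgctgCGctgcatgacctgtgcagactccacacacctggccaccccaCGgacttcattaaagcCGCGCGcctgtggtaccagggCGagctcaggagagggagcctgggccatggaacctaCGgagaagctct
Cntnap2, in the dip, chr6:45059811-45060110, plus strand: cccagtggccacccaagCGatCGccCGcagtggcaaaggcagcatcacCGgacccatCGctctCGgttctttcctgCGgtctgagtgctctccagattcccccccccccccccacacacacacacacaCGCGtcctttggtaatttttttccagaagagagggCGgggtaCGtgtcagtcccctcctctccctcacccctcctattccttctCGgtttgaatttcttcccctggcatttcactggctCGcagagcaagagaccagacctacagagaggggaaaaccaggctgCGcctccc
Cntnap2, second start, in the gained part, chr6:47244146-47244445, plus strand: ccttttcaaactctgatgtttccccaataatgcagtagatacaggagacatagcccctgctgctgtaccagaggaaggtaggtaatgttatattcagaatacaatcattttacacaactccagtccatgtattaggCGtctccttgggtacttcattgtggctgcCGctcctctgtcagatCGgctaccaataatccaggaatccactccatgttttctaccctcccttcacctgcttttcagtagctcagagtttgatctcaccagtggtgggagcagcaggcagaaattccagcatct
The 2-letter motif CG, which reads the same on both strands, occurred 28 times in the Arhgef5 promoter, 13 times in that of Nobox, 14 times at the first Cntnap2 start and 3 times at the second. Over all 32851 promoters of that length in the table the median was 7, and 94.6% held at least 1. As many CG or more as at Arhgef5 stood in 14.2% of all promoters, as at Nobox in 37.9%, as at the first Cntnap2 start in 36.3% and as at the second in 76.7%. These counts describe the sequence and were not tied to the coverage.

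In the cells of the culture chromosome 6 stood at 1.496 ± 0.0828 (SD, n = 22 cells of 1 sample), with a lowest cell of 1.253 and a highest of 1.66. The 21 naive WBC stood at 1.01 ± 0.0319, from 0.948 to 1.099, and the ranges of culture and naive WBC did not overlap. Every CTC lay within the range of the culture. The CTC means were 1.41 in C1L, 1.56 in C1N, 1.502 in C1R, 1.498 in C2R and 1.48 in C3R, which gives 1.49 ± 0.0531 (SD, n = 5 samples). WBC of tumor-injected mice had means of 0.979 in C1L, 1.02 in C1N, 1.01 in C1R, 1.01 in C2R and 1.00 in C3R, or 1.00 ± 0.0152 (SD, n = 5 samples with at least 3 WBC). Every CTC lay above every WBC, since the lowest CTC stood at 1.31 and the highest WBC at 1.12.

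DP cells spanned both. Their sample means ranged from 1.00 in C2N to 1.42 in C3R, with 1.245 ± 0.137 (SD, n = 9 samples), and single cells lay from 0.644 to 1.78. Counted by cell, the gain was present in 43 of 43 CTC (100%, exact Clopper-Pearson 95% interval 91.8% to 100%), in 256 of 450 DP cells (56.9%, 52.2% to 61.5%) and in 0 of 46 WBC of tumor-injected mice, a count that leaves room for a share of up to 6.52%. All 22 culture cells carried it and 0 of 21 naive WBC did, which allows up to 14.3%. Where a count is 0, the limit given throughout is 3 counts of the total, which is not the exact interval's bound. Intervals and limits cover counting error only. Among cells of tumor-injected mice the highest level under the limit was 1.244 and the lowest above it 1.256, and 49 of these cells lay within 0.1 of it.

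**Figure D1:**
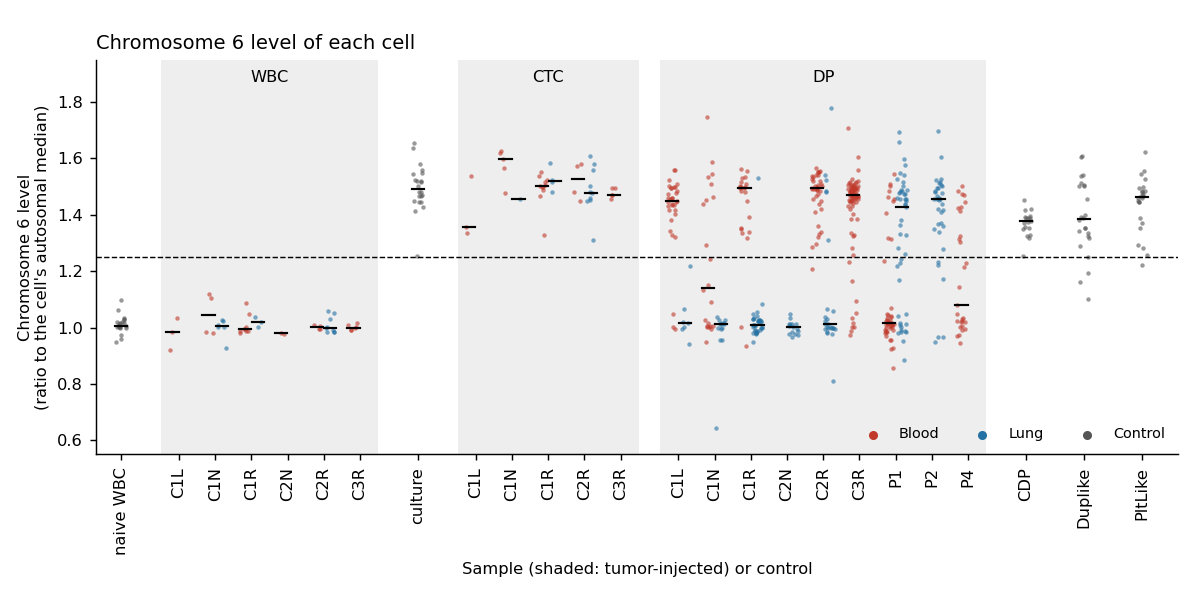
Chromosome 6 level of every cell (ratio to the cell's autosomal median, y axis) by sample within each class (x axis), with red points for blood, blue for lung, grey for controls, black bars for medians and a dashed line at the limit of the gain. All WBC lie under the line and all 43 CTC over it, while DP cells form 1 cloud near 1.0 and another near 1.5.

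Among DP cells the share with the gain depended on sample and tissue together. In C1L 30 of 33 blood DP cells carried it (90.9%) and 0 of 7 lung DP cells did. In C1R the counts were 21 of 23 in blood (91.3%) and 1 of 34 in lung (2.94%), and in C2R 38 of 39 (97.4%) and 6 of 25 (24%). C1N had the gain in 9 of 22 blood cells (40.9%) and in 0 of 14 lung cells. In these 4 samples blood held the larger share. P1 was the other way around, with the gain in 10 of 46 blood DP cells (21.7%) and in 30 of 47 lung DP cells (63.8%). The remaining samples had DP cells from 1 tissue only, with the gain in 71 of 81 blood cells of C3R (87.7%), 11 of 29 blood cells of P4 (37.9%), 29 of 35 lung cells of P2 (82.9%) and 0 of 15 lung cells of C2N. Over all samples 190 of 273 blood DP cells (69.6%) and 66 of 177 lung DP cells (37.3%) carried it.

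To ask whether the gain goes with the rest of the tumor genome, each cell received a score from the other 18 autosomes, with 0 for the naive WBC profile and 1 for the culture profile. Cells above 0.75 are called tumor-genome, cells below 0.25 host-genome, and the others intermediate. Chromosome 6 takes no part in this score, but all chromosomes of a cell share 1 library. Of 274 tumor-genome CTC and DP cells 267 carried the gain (97.4%, 94.8% to 99.0%). Of 222 host-genome DP cells and WBC 0 did, which allows up to 1.351%. Intermediate cells carried it in 32 of 43 cases (74.4%, 58.8% to 86.5%, exact Clopper-Pearson 95% intervals).

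The 7 tumor-genome cells under the limit were not far from it. They lay between 1.17 and 1.24, with 1 in C3R, 3 in P1, 2 in P2 and 1 in P4. They were thus 1 of 200 tumor-genome cells in C samples and 6 of 74 in P samples. These sets are unlike, since the 200 include 41 CTC, all with the gain, and the P samples held 0 CTC. On a scale with steps of 0.25, 245 of the 274 were nearest to a level of 1.5, 25 to the step below it, 4 to the step above and 0 to 1.0. Between 1.4 and 1.6 lay 237 of them (86.5%), and more cells stood in the low tail than in the high one.

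**Figure D2:**
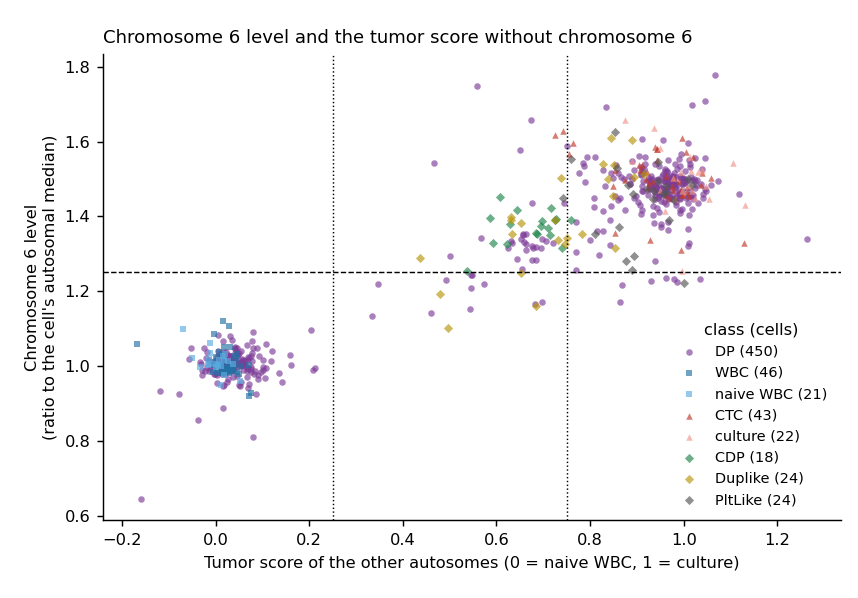
Chromosome 6 level (y axis, ratio to the autosomal median) against the tumor score of the other autosomes (x axis, 0 for naive WBC and 1 for culture) for all 648 cells, coloured by class, with lines at the score limits 0.25 and 0.75 and at the limit of the gain. Host-genome cells stay near 1.0, tumor-genome cells gather near 1.5, and most intermediate cells lie between, with a few above.

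The autosomal medians of the cells fell near 5 coverage levels, at about 1.8, 3.7, 5.6, 7.7 and 9.6 of the deposited unit, and the chromosome 6 level of DP cells differed between them. At 1.8 the 177 DP cells had a mean chromosome 6 level of 1.00 ± 0.0560 (SD over cells), and 1 of them, a tumor-genome blood cell of C1L, carried the gain. At 3.7, the level of the culture and of all CTC, the 219 DP cells stood at 1.48 ± 0.0770 and 213 carried it. The 29 cells at 5.6 stood lower, at 1.34 ± 0.0783, and the 9 cells at 7.7 lower again, at 1.198 ± 0.0541. The 16 cells at 9.6 stood at 1.39 ± 0.0976. In the deposited unit the chromosome 6 coverage of DP cells was 1.83 ± 0.161 at the first level, 5.49 ± 0.286 at 3.7, 7.52 ± 0.435 at 5.6, 9.30 ± 0.445 at 7.7 and 13.3 ± 0.878 at 9.6, against 1.82 ± 0.0854 in WBC and 5.58 ± 0.265 in CTC.

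The intermediate DP cells were found mostly at the raised coverage levels. Of 41 such cells 24 lay at 5.6, 9 at 7.7, 3 at 9.6 and 5 at 3.7. At 5.6 their chromosome 6 level was 1.32 ± 0.0644, and 7.7 was made up of intermediate cells alone. The 5 at 3.7 stood higher, at 1.57 ± 0.175 with a highest cell of 1.747, above the mean of 1.475 of tumor-genome DP cells there, and the 3 at 9.6 stood at 1.38 ± 0.102. The 2 intermediate CTC averaged 1.62. A running median of 5 bins stood above the limit of the gain over 97.2% of chromosome 6 in the median tumor-genome DP cell at 3.7, over 80.7% in the median intermediate cell at 5.6 and over 12.4% at 7.7. In host-genome DP cells that median was 0%. These levels are relative to each cell's autosomes and do not give absolute copies.

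Control classes fell into the same pattern. PltLike cells stood at 1.44 ± 0.0986 (n = 24 cells, 23 with the gain), all at the coverage level of the culture. CDP cells stood at 1.37 ± 0.0453 (n = 18, 18 with the gain), all at 5.6. The 9 Duplike cells at 3.7 stood at 1.51 ± 0.0777 and the 14 at 5.6 at 1.32 ± 0.107, so that 20 of 24 carried it. Each class is 1 sample, so these values carry no test between classes.

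Tumor-genome DP cells and CTC of the same samples had chromosome 6 at levels that crossed from sample to sample. Tumor-genome DP cells had means of 1.46 in C1L, 1.49 in C1N, 1.49 in C1R, 1.501 in C2R and 1.47 in C3R, against the CTC means given above. The CTC were not filtered by the score. Those of C1N include 2 intermediate cells, and its 4 tumor-genome CTC averaged 1.52. DP cells were higher in 2 of 5 samples and lower in 3, with differences from -0.0671 to 0.0521. The mean difference was -0.00549 ± 0.0424 (SD, n = 5 samples), and a two-sided exact sign-flip permutation test over samples gave p = 0.625, where 0.0625 is the smallest p that 5 pairs allow. Bin by bin, limma called 0 of 4376 bins of autosomes and X at a false discovery rate of 5% (0% of all bins), 0 of them on chromosome 6. With a score limit of 0.5, which adds intermediate cells, it called 143 bins (136 higher and 7 lower in DP cells), again 0 on chromosome 6. At an unadjusted p under 0.05 stood 335 bins (7.66%), among them 5 of the 237 chromosome 6 bins fitted (2.11%).

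Host-genome DP cells and WBC of the same samples did not differ beyond their spread either. Host-genome DP means were 1.01 in C1L, 0.992 in C1N, 1.01 in C1R, 0.999 in C2R and 1.02 in C3R. Their difference from WBC was 0.00229 ± 0.0227 (SD, n = 5 samples), above 0 in 2 of 5 samples, with p = 0.875 in the same exact test. Again limma called 0 of 4376 bins (0% of all bins), with 369 at an unadjusted p under 0.05 (8.43%), of which 8 on chromosome 6. A p that misses the threshold does not show that the classes are alike.

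Blood and lung could be compared within tumor-genome DP cells in only 2 samples. In C2R the lung mean was 1.56 (5 cells) and the blood mean 1.49 (34 cells), and in P1 the lung mean was 1.46 (25 cells) and the blood mean 1.45 (9 cells). Lung was higher in both, by 0.0415 ± 0.0398 on average (SD, n = 2 samples). The exact test cannot go below p = 0.5 with 2 pairs and gave that value.

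In tumor-genome DP cells the gain stood a little lower in the P samples than in the C samples. The P means were 1.46 (P1), 1.45 (P2) and 1.41 (P4), or 1.44 ± 0.0278 (SD, n = 3), and the 5 C means, listed above, average 1.48 ± 0.0162. All 3 P means lay below all 5 C means, the nearest being P1 at 1.459 and C1L at 1.462. The difference was -0.0437, with p = 0.0357 in a two-sided exact permutation test (smallest possible 0.0179) and p = 0.0625 after Benjamini-Hochberg adjustment over 7 sample-level tests, so it fails the correction. The 7 include the bin spread of chromosome 6, a description further on, whose small p lowers the other adjusted values. The P and C samples also differed in tissue. All 29 such cells of P2 came from lung, as did 25 of P1 against 9 from blood, while the 11 of P4 came from blood. In the C samples lung gave only 1 cell of C1R and 5 of C2R, and the rest came from blood. What part tissue had in the difference was not tested. Bin-to-bin noise, the median absolute log2 difference of neighbouring bins, was higher in the P cells, at 0.187 ± 0.0103 (n = 3) against 0.168 ± 0.0119 (n = 5). Among cells below the median noise, an alternative added after seeing the data, the difference was -0.0584. The call rested on single samples, since leaving out any 1 of C1N, C1R, C2R, C3R or P4 gave p-values from 0.0571 to 0.143. In limma 0 of 4376 bins passed (0% of all bins), with 916 at an unadjusted p under 0.05 (20.9%). Chromosome 6 held 70 of these (29.5% of its 237 bins), and 183 of its 237 bins were lower in P samples, with a median difference of -0.04 in log2. The share of lower bins over all 4376 is not reported here, so the 183 cannot be set against it. Without C3R limma called 514 of 4376 bins (267 higher, 247 lower). On chromosome 6 it called 41 of 237, of which 36 were lower in P samples.

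The gain reached along the whole chromosome. The next values are log2 differences from WBC of tumor-injected mice, averaged over tumor-genome cells of a sample and then over 8 samples, in the 237 of 269 bins that stood at the ceiling of the deposited values in fewer than 1% of cells. The median bin stood at 0.52, and the SD between samples of a single bin had a median of 0.0542. Of the 233 bins outside the dip 201 (86.3%) lay within 0.1 of the median and 231 within 0.2. Outside the dip 231 of 233 bins stood above 0.3, and 230 did so in each of the 8 samples. In windows of 10 Mb, as medians over their bins, the gain stood between 0.48 and 0.60. The lowest window, from 40 to 50 Mb, holds the dip, which a median over its 16 bins does not show. The highest bin, at 0.71, was chr6:97771706-98292803, the bin of Mitf. The lowest bins outside the dip were chr6:106408330-106938227 at 0.25 and chr6:15501284-16059426 at 0.27, each a single bin. In the culture, measured against naive WBC, these lowest bins stood at 0.44 and 0.48. The Mitf bin stood at 0.61 there, below the bin chr6:3705902-4250873 at 0.70, so it was not the highest in the culture. Host-genome DP cells stood at 0.09 in the Mitf bin.

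A shallow slope ran along the gained chromosome. Cut into 3 parts of equal length, chromosome 6 of tumor-genome cells stood at 0.57 ± 0.0343 in the first part, 0.52 ± 0.0333 in the middle and 0.50 ± 0.0382 in the last (log2 against naive WBC, SD, n = 8 samples). First minus last part was 0.11 in C1L, 0.04 in C1N, 0.08 in C1R, 0.07 in C2R, 0.05 in C3R, 0.03 in P1, 0.08 in P2 and 0.07 in P4. The proximal part was higher in 8 of 8 samples, by 0.0653 ± 0.0223, with p = 0.00781 in the two-sided exact sign-flip test, the smallest p it can give, and 0.0182 after adjustment over the 7 tests. WBC, measured in 5 of these 8 samples, all of them C samples, showed 0.0165 ± 0.0246 (4 of 5 above 0, exact p = 0.25). Host-genome DP cells showed 0.0279 ± 0.0443 (8 of 9 samples above 0, exact p = 0.0977). Where a sample held both, the slope of tumor-genome cells exceeded that of WBC in 5 of 5 samples, by 0.0518 ± 0.0203, at the smallest p that 5 pairs allow in this exact test, 0.0625. Most of the fall lay ahead of the middle part, since first minus middle was 0.0506 ± 0.0139 (8 of 8 samples, exact p = 0.00781) and middle minus last 0.0147 ± 0.0161 (6 of 8 samples, exact p = 0.0312). The values by window are against WBC of tumor-injected mice, unlike those of the 3 parts. These WBC differed from naive WBC by -0.0591 (90 to 100 Mb) to 0.0281 (70 to 80 Mb). By windows, the first 30 Mb stood at 0.59 to 0.60 and the stretch from 100 to 130 Mb at 0.49 to 0.50. The fall was not steady, since the window from 60 to 70 Mb stood at 0.55, as did that from 30 to 40 Mb, and the last window, from 140 Mb, at 0.54.

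**Figure D3:**
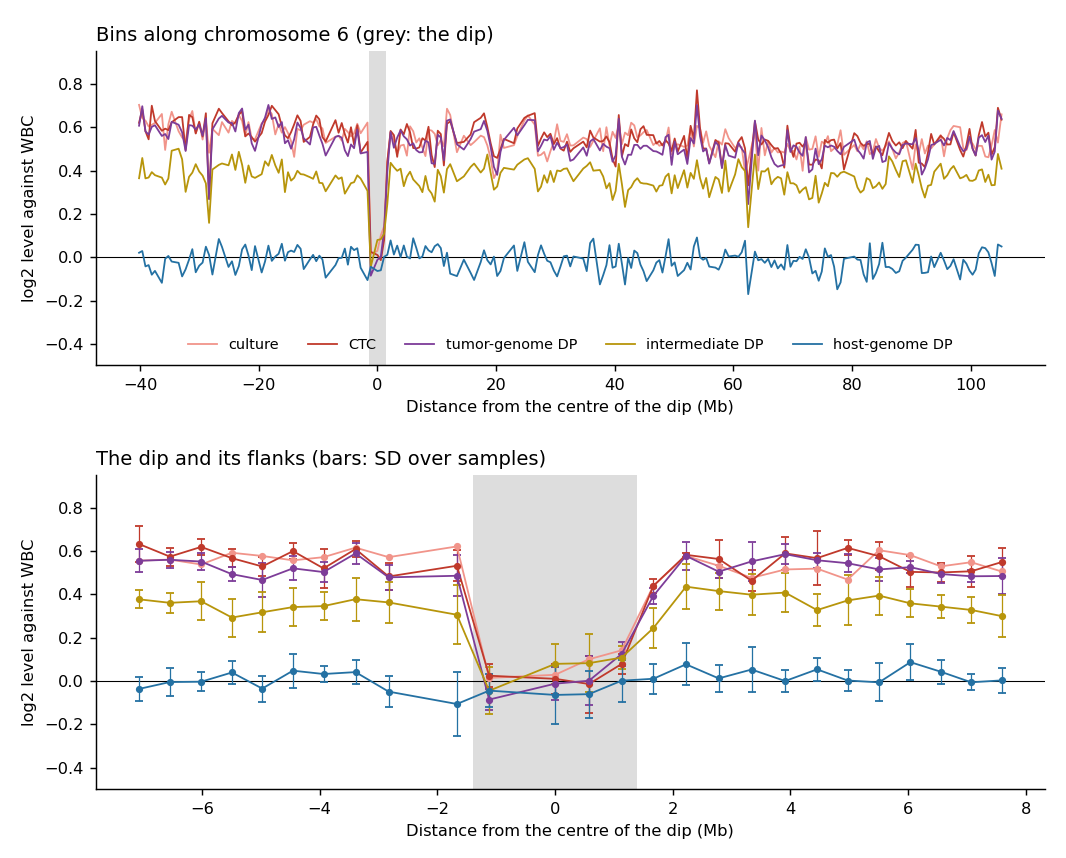
Mean log2 level of bins along chromosome 6 (y axis) against distance from the centre of the dip in Mb (x axis), for culture (against naive WBC) and for CTC and tumor-genome, intermediate and host-genome DP cells (against WBC of tumor-injected mice), whole chromosome above and 8 Mb on each side of the dip below, with bars for the SD over samples. Culture, CTC and tumor-genome DP run together near 0.5 and fall to near 0 inside the grey dip.

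Within a cell chromosome 6 was more even along its length than the typical other autosome. The SD over its bins in tumor-genome cells was 0.180 ± 0.0173 (log2, SD over n = 8 samples), against 0.237 ± 0.0168 for the median of the other autosomes of the same cells. Chromosome 6 was lower in 8 of 8 samples, with differences from -0.0695 to -0.0470. As it was chosen as a chromosome gained as a whole, this is a description with no test. The comparison was still counted among the 7 tests of the adjustment. By cell chromosome 6 was lower in 261 of 274. In WBC the same difference was -0.00687 ± 0.00688 (4 of 5 samples below 0). It was number 3 of 19 from the most even, after chromosomes 9 and 18, although the dip is included in its spread. It had the highest level of all 19 autosomes, with a mean of 1.47, followed by chromosome 3 at 1.22 and chromosome 1 at 1.12. From cell to cell its level varied with an SD of 0.0739 in log2, rank 10 of 19, against 0.0515 in WBC.

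The 1 exception to the gain was a focal dip. It was defined in the culture as bins at least 0.3 below the chromosome 6 median in log2 against naive WBC, which gave 1 dip and 0 peaks, and a limit of 0.2 gave the same. In the culture its 4 measured bins lay 0.46 below the chromosome median of 0.54, which is given as a description since the culture chose them. The cells of the tumor-injected mice took no part in that choice. Tumor-genome cells, however, were picked by their likeness to the culture on the other autosomes. The test therefore asks only whether a dip of the culture recurs in cells picked as culture-like. In them the dip was -0.47 in C1L, -0.58 in C1N, -0.48 in C1R, -0.52 in C2R, -0.53 in C3R, -0.51 in P1, -0.55 in P2 and -0.49 in P4, relative to the chromosome median of the same cells. The mean of these tumor-genome values was -0.518 ± 0.0363 (SD, n = 8 samples), below 0 in 8 of 8, with p = 0.00781 in the two-sided exact sign-flip test (smallest possible, 0.0182 adjusted over 7 tests).

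CTC and tumor-genome DP cells shared the dip at about the same depth. CTC had -0.522 ± 0.0599 (n = 5 samples) and tumor-genome DP cells -0.521 ± 0.0487 (n = 8 samples). Host-genome DP cells had -0.0324 ± 0.0706 (n = 9, below 0 in 5 of 9, exact p = 0.215). WBC of tumor-injected mice averaged -0.00173 ± 0.0366 (n = 5), but they serve as the reference and lie near 0 by construction, whereas the 21 naive WBC, which do not, averaged -0.0202. Against WBC the dip bins of tumor-genome cells stood at 0.0124 on average in log2, from -0.06 to 0.12, while the bins on either side stood at 0.49 and 0.41. The dip thus lay at the host level of coverage relative to the autosomes. Its proximal edge was sharp, since the bin chr6:42225251-42759260 stood at 0.49 and the next one, chr6:42759261-43320688, at -0.06. The distal edge took more bins, from 0.00 at chr6:44448408-45022367 to 0.12, then 0.41 and 0.59 in the bins that follow.

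The dip and the gain were found in nearly the same number of tumor-genome cells, 268 and 267 of 274, but not always in the same ones. A depth below -0.25 was found in 268 of 274 tumor-genome cells (97.8%, exact 95% interval 95.3% to 99.2%), in 42 of 43 CTC and in 21 of 22 culture cells, against 1 of 67 WBC and 4 of 176 host-genome DP cells. Intermediate DP cells had it in 31 of 41 cases, at a shallower mean depth of -0.336 ± 0.120 (SD over cells). CDP cells had it in 14 of 18 (-0.321 ± 0.0878), Duplike cells in 21 of 24 (-0.418 ± 0.158) and PltLike cells in 24 of 24 (-0.557 ± 0.126). Among DP cells the dip was -0.520 ± 0.133 deep at coverage level 3.7, -0.334 ± 0.0816 at 5.6, -0.253 ± 0.124 at 7.7 and -0.488 ± 0.238 at 9.6, in the same order as the gain itself. Since depth is taken from the cell's own chromosome 6 median, a dip at host level is deeper by construction where the gain is higher. Of the tumor-genome cells without the dip, a C3R blood DP cell had the least, at -0.01, with a chromosome 6 level of 1.38. The 6 tumor-genome cells without it had levels from 1.22 to 1.59, on both sides of the limit of the gain.

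**Figure D4:**
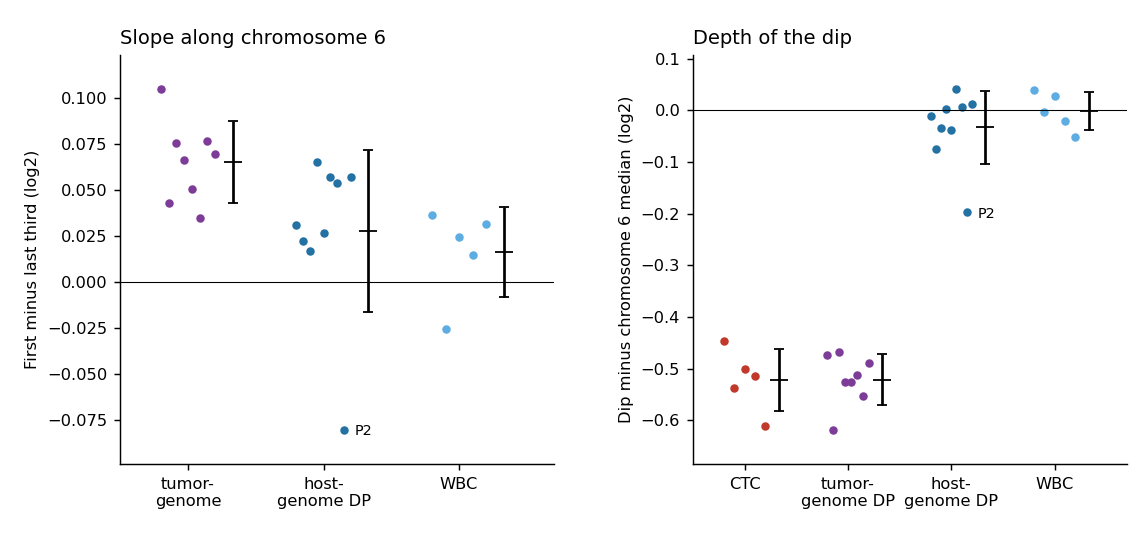
Per-sample values (points) with mean and SD (bars): first minus last of 3 equal parts of chromosome 6 in log2 on the left, and depth of the dip relative to the chromosome 6 median in log2 on the right, for tumor-genome cells, host-genome DP cells and WBC, with CTC and DP apart on the right. Tumor-genome samples lie above 0 on the left and between -0.62 and -0.45 on the right, and the host-genome DP cells of P2 stand apart from the other host-genome samples.

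The dip opens with a cluster of olfactory receptors. The annotation lists 19 protein-coding genes that touch it, 6.79 per Mb against 7.52 per Mb on all of chromosome 6. Of these, 15 are olfactory receptor genes, which detect odorants in the nose, and the last of them ends at position 43236575. The others include Arhgef5 (chr6:43265644-43289320), a guanine nucleotide exchange factor, Nobox (chr6:43303674-43310072), a homeobox factor of oocytes, and Cntnap2 (chr6:45060061-47301393), a neuronal cell adhesion gene. Only the first 0.499 Mb of the 2.24 Mb of Cntnap2 is in the dip. Its first bin stood at 0.12 and the bin over its midpoint at 0.59, so the edge of the dip falls inside this gene. The remaining bin of the dip, chr6:43320689-43875256, met the ceiling in 4.01% of cells and was left out.

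How often a step was found within the chromosome depended on the size asked for. For each cell the best single step with at least 20 bins on each side was found, and a difference of at least 0.3 in log2 between the sides was counted. Such a step was present in 11 of 274 tumor-genome cells, all of them DP cells (11 of 233, 4.72%, exact 95% interval 2.38% to 8.29%), and in 0 of 43 CTC, which leaves room for up to 6.98%. With a step of at least 0.2 the count in tumor-genome cells was 51 of 274. The background was 1 of 67 WBC at either size, and 2 of 176 host-genome DP cells also had one. The culture had 0 of 22 cells with a step, which allows up to 13.6%. In all 11 tumor-genome cells the proximal side was higher. In 5 of them the step lay between 25 and 30 Mb, in 5 between 39 and 43 Mb, just before the dip, and in 1 between 60 and 70 Mb. By sample these were 3 cells of C3R, 3 of C1L, 2 of C1R, and 1 each of C1N, C2R and P2. The largest step was 0.63, at position 26072693 in a C3R blood cell with a level of 1.23, below the limit of the gain. The median noise of the 11 cells was 0.195 against 0.172 over tumor-genome DP cells. The measured bins of the dip were left in the search for steps. What part noise, the dip and the slope along the chromosome had in these steps was not tested. Steps also occurred in 2 of 24 PltLike cells and 1 of 24 Duplike cells, all with the proximal side higher, and in 0 of 18 CDP cells.

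The bins over the midpoints of all listed genes shared the gain, although the start of Cntnap2 lies in the dip. The 45 listed genes were each given the bin over their midpoint, and all 45 stood above 0.3 in log2 against WBC in each of the 8 samples, as did 230 of 233 bins outside the dip, so the list does not stand apart from the chromosome. Their values ran from 0.42 to 0.71 with a median of 0.50. Genes in neighbouring or shared bins are not independent, since Cd4, Chd4 and Gapdh share 1 bin, as do Fancd2 and Vhl, Etv6 and Lrp6, and Smo and Irf5.

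Of the 9 growth signalling genes, the highest were Wnt2, a secreted Wnt ligand, at 0.65 ± 0.0430 (SD, n = 8 samples), and Met, the receptor of hepatocyte growth factor, at 0.65 ± 0.0502. Both lie in the first part of the chromosome. Among 8 melanocyte and differentiation factors Mitf was highest at 0.71 ± 0.0468, with samples from 0.62 to 0.76, followed by Hoxa9, a homeobox factor, at 0.54 ± 0.0712. The lowest were Foxp1, a forkhead repressor, at 0.49 ± 0.0429 and Pparg, the nuclear receptor of fat cell differentiation, at 0.49 ± 0.0391. Of 10 genes of the cell cycle, chromatin and genome maintenance, Pot1a, which protects telomeres, stood at 0.70 ± 0.0187 and the cyclin-dependent kinase inhibitor gene Cdkn1b at 0.55 ± 0.0477, while Fancd2 and Vhl, a DNA repair gene and a tumor suppressor in 1 bin, stood lowest at 0.49 ± 0.0592.

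The 9 immune genes stood at 0.44 to 0.63. Igkc, the constant region of the kappa light chain, stood highest at 0.63 ± 0.0816 and Irf5, an interferon regulatory factor, next at 0.51 ± 0.0350. The activation marker Cd69, at 0.44 ± 0.0651, and the NK cell receptor gene Klrk1, at 0.45 ± 0.0904, were lowest. Of 7 long genes Foxp2, a forkhead factor, stood at 0.65 ± 0.0553 and Cntnap2 at 0.59 ± 0.0481, while the scaffold gene Magi1 stood at 0.44 ± 0.0664. The glycolysis genes Tpi1 and Gapdh stood at 0.55 ± 0.0311 and 0.50 ± 0.0529. In host-genome DP cells the same genes lay near 0, for example Mitf at 0.09, Met at 0.08 and Magi1 at -0.04, and in intermediate DP cells these 3 lay between, at 0.45, 0.43 and 0.29.

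The bins at the ceiling are the part of the chromosome that these values cannot measure. They number 32 of 269, of which 12 stood at 10, the highest value that most cells hold, in at least 50% of all cells. Their coverage ran high in WBC too, with a median of 2.54 times the autosomal median (4.62 for the 12), against 1.00 in the other bins, and 18.8% of them held no protein-coding gene against 11.4%.

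In host-genome cells chromosome 6 was flat with few exceptions. Of 222 such cells 216 lay between 0.9 and 1.1. Above them, 2 WBC of C1N blood stood at 1.11 and 1.12. Below 0.9 lay 4 DP cells, namely a C1N lung cell at 0.644, a C2R lung cell at 0.811, and a blood cell and a lung cell of P1 at 0.856 and 0.886. The C1N cell was low in all 3 parts by their medians, at -0.59, -0.62 and -0.63. It was not even, since it also had a step of 0.37 at position 93511581, with the proximal side higher, and a dip depth of -1.54. The other host-genome DP cell with a step, a P1 blood cell, fell by 0.57 past position 118296442. Its last part stood at -0.45 while the first stood at -0.01.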

How the data were processed

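The submitters' processing notes name mm10 and, without roles, BWA, HISAT2, Trim Galore, featureCounts, SAMtools and Picard. How the coverage was normalized is not given in the sources used here. The deposited table holds a normalized coverage signal per bin and cell, whose values stop at 10 in most cells; read depth is unknown. Cells were mapped to class, tissue and sample through the deposited cell table. Profiles, parts, steps, the dip and the bin fits used only bins that reach 10 in under 1% of cells (237 of 269), a choice made after values were seen; log2 values carry a pseudocount of 0.1. Cells of 1 class in 1 sample were averaged (at least 3 cells). The sample is the pair, since classes share the deposited sample label. Tests were two-sided exact permutation tests and limma (lmFit, eBayes, sample as a block except for P against C, Benjamini-Hochberg over 4376 bins), tested on simulated data. Genes were named as the 2 highest and 2 lowest of each list, plus those in the dip; some are not reported here. The chromosome, lists and tests were chosen with earlier results of these data known. Software was R 4.3.3 with limma 3.58.1, and Python 3.11.15 with scipy 1.17.1 and numpy 2.4.6, with annotation from GRCm38.p6.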

Additional observations from a re-analysis of the deposited data

Results flagged for a closer look

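In 15 groups of samples the highest and lowest values were compared with the rest, and chance sets 1 in 20 such groups apart. The host-genome DP cells of P2 stood apart in 3 of them. Their dip depth was -0.198 in log2, against -0.0743 to 0.0417 in the other 8 samples. Their chromosome 6 level was 0.960, against 0.992 to 1.02. First minus last of 3 equal parts of the chromosome was -0.0803, against 0.0172 to 0.0655. The 3 values come from the same 3 lung cells, the fewest host-genome DP cells of any sample, so they are not separate observations, and the cause was not tested.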

How the results depend on the processing

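Of 182 alternatives 159 were counted as unchanged. For differences between groups of samples this means the same sign and the same side of the exact permutation test's threshold. With 5 pairs or fewer (tumor-genome DP minus CTC, host-genome DP minus WBC and lung minus blood) that test could not pass its threshold. There only the sign was open to change. A minimum of 1 cell per class and sample repeated the main values of tumor-genome DP minus CTC, P minus C, slope and dip. Levels of a class had to stay within their SD over samples, and shares of cells within their exact interval. Numbers of cells with a step and of bins called had to stay near the main number. The bin spread of chromosome 6, a description above, is among the 159. A mean in place of the median over bins, which lets bins at the ceiling weigh in, gave 1.56 for CTC, 1.23 for WBC, and a gain in 71.1% of DP cells and 52.2% of WBC; leaving those bins out gave WBC 0.984, and a limit raised by 0.1 gave 50.2% of DP cells. Steps of at least 0.2 were found in 51 tumor-genome cells in place of 11, and in WBC with a pseudocount of 0.5, or with the other WBC profile, in 0 in place of 1. A score limit of 0.5, which adds intermediate cells, gave 143 bins for tumor-genome DP minus CTC. Tumor-genome DP minus CTC turned to 0.00101 with cells near 3.7 only. Host-genome DP minus WBC turned to -0.0380 with the mean and -0.00132 with bins divided by naive WBC first. The cause was not tested, and with 5 pairs neither could pass the threshold of the exact permutation test. Leaving out 1 sample at a time gave -0.0199 to 0.00992 for the first and -0.00490 to 0.00946 for the second. It gave -0.0536 to -0.0279 for P minus C (exact p 0.0286 to 0.143), 0 to 1 bins for tumor-genome DP minus CTC and 0 to 514 bins for P minus C, and turned the sign of the first without C1N (0.00992) and of the second without C1L (-0.00490) or C3R (-0.00174). Without the sample as a block limma called 0 bins in both paired comparisons, as with it. Read depth is unknown, so limits were set by noise, 0.136 to 0.270 per cell.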
